A study of Mus musculus with 43 samples.

Results

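Pou5f1, Sox2, Nanog and Sall4 encode core transcription factors of the pluripotency network. They were taken by symbol from 8 tables of RNA-seq expression values, which name 46785 symbols in all, and none of the 4 had more than 1 entry in a table. All 4 were listed in 7 tables; the table of Ddx18 knockdown in embryonic stem cells (ESCs) lists Pou5f1, Nanog and Sall4 but not Sox2. The series as a whole comprised 43 mouse samples, of which 37 were RNA-seq libraries, and it asked what the nucleolar RNA helicase DDX18 does in early embryos and ESCs and how that compares with inhibiting RNA polymerase I or translation. The ESC libraries came from the CJ9 line (strain 129S1/SVImJ) in serum with LIF: control and Ddx18 knockdown (2 libraries each); 0, 5 and 10 ng/ml actinomycin D (ActD; 3, 2 and 2 libraries), which intercalates into DNA and at low doses blocks RNA polymerase I; 0 and 1 µM CX-5461 (3 each), an inhibitor of RNA polymerase I transcription; and 0 and 10 µM cycloheximide (CHX; 2 each), which blocks translation elongation. ESCs of the same strain with knockout of p53 were given control or Ddx18 knockdown (2 each) and, separately, 0 or 10 ng/ml ActD (2 each; the source label of these last 4 libraries reads CJ9, their titles p53 KO), and ESCs with knockout of EZH2 were given control or Ddx18 knockdown (2 each). Wild-type and Ddx18 knockout embryos (2 libraries each, strain C57/B6) were taken at E3.5 from DDX18 heterozygous mice. The labels do not state how long a treatment lasted, how the knockdown was done, how many clones a knockout line is or how many embryos a library holds.

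In ESCs, OCT4 (the product of Pou5f1) and SOX2 bind DNA as a pair at composite octamer and Sox sites, many of which they share with NANOG. The 3 factors sustain their own genes and each other's, and they hold back genes of the trophectoderm and of the embryonic lineages. SALL4, a zinc finger factor, works with OCT4 and NANOG and recruits the NuRD deacetylase complex. Loss of OCT4 turns ESCs toward trophectoderm, whereas ESCs can be maintained without NANOG, which guards against differentiation.

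The genes lie at chr17:35506018-35510772 (Pou5f1), chr3:34650405-34652461 (Sox2), chr6:122707489-122714633 (Nanog) and chr2:168748332-168767201 (Sall4), as the authors' tables place them. Promoter sequences are shown for Nanog and Sox2 because their proximal windows hold letters that OCT4 and SOX2 recognise, and because these 2 genes moved most alike. Each window is the 250 bases before the RefSeq start on the plus strand of GRCm38.p6, chr6:122707239-122707488 for Nanog and chr3:34649745-34649994 for Sox2, with matched letters in capitals.
Nanog: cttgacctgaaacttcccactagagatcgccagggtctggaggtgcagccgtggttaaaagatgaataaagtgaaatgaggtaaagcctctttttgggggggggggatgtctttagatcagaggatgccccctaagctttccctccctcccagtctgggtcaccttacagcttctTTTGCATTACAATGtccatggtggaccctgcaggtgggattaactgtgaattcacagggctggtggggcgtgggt
Sox2: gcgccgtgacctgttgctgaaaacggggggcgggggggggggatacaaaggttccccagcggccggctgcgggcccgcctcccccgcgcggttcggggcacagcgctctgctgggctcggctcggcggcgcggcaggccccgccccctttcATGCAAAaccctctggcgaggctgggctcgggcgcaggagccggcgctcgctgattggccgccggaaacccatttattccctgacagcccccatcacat

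The octamer core ATGCAAA and the Sox core CATTGT were searched on both strands. The Nanog window holds both cores on the minus strand, 1 base apart, at positions -75 to -62 from the start. This composite of the 2 cores occurred in 2 of 32851 RefSeq promoter windows of that length (0.00609%), and both of them were starts of Nanog. The Sox2 window holds the octamer core at -99 to -93, a match found in 4.12% of the windows, and no Sox core, which 10.7% of them hold. The Pou5f1 window has neither core, and none of the 3 windows holds the p53 consensus decamer that 7.13% of windows hold. A match describes the letters, not a bound site, and Sall4 was not searched.

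Ddx18 was lower wherever its loss is labelled, and Ezh2 was low in EZH2 KO ESCs, whereas Trp53 transcripts remained in p53 KO ESCs. Ddx18 stood at 86.9 ± 3.15 FPKM (fragments per kilobase, scaled to sequencing depth; SD, n = 2) in control ESCs and 9.23 ± 1.00 after knockdown, and it was also lower after knockdown in EZH2 KO (86.0 against 16.5) and p53 KO ESCs (43.3 against 3.47) and in knockout embryos (16.5 against 2.91). Ezh2 was at 3.52 FPKM in EZH2 KO controls and between 6.96 and 55.2 FPKM in the untreated ESC groups. The value of 6.96 was that of the CX-5461 controls, and the other untreated ESC groups were at 31.7 FPKM or more. In ESCs given CX-5461 Ezh2 was at 3.19 FPKM, a level like that of the EZH2 KO controls. Trp53 was at 97.9 and 118.9 FPKM in the untreated p53 KO groups, 184.5 after ActD and 226.5 after knockdown, and between 41.1 and 384 FPKM in the untreated ESC groups. The value of 41.1 was again that of the CX-5461 controls, and the other untreated ESC groups had Trp53 at 252.6 FPKM or more. The deleted part of the gene is not stated, so the level of Trp53 does not check the p53 KO label. Depth was deposited for 19 libraries and lay between 7112852 and 22983179 mapped reads. The 5 ESC markers (Zfp42, Utf1, Esrrb, Dppa5a, Tdgf1) were present in every full table, and of 7 fibroblast markers Lum and Postn were at 0 in the ESC controls of these tables, while the list summed to between 2.76 and 24.8 FPKM there, most of it Thy1. Nothing in the labels says that libraries of a group came from separate cultures, so each p-value reflects variation among these libraries alone, which may be technical.

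Pou5f1 had the highest level of the members in all 7 groups of untreated ESCs, whatever the genotype, and Sall4 the lowest in 5 of the 6 that list all 4 genes. In the untreated ESCs of the ActD table, the Pou5f1 libraries were at 459.5, 389 and 415 FPKM, Nanog at 104, 99.5 and 88.9, Sox2 at 101, 85.04 and 88.1, and Sall4 at 51.8, 46.1 and 50.1. Nanog and Sox2 therefore overlapped there, whereas Pou5f1 lay above and Sall4 below both. Among the 12149 symbols at 1 FPKM or more in that group, Pou5f1 was above 98.8% and Sall4 above 89.8%.

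Across the control groups the level of Sall4 ranged from 42.4 to 87.6 FPKM and that of Nanog from 64.5 to 150.4, spans of 2.07-fold and 2.33-fold. Pou5f1 spanned 77.8-fold, from 14.7 FPKM in wild-type embryos to 1145 in EZH2 KO ESCs, and Sox2 38.1-fold, from 5.42 FPKM in embryos to 207 in p53 KO ESCs. The order of the genes also differed in the embryos, where Nanog (169.5 and 87.3 FPKM) was highest, followed by Sall4 (44.6 and 48.0), Pou5f1 (18.5 and 10.9) and Sox2 (3.45 and 7.40). No libraries of neighbouring genes in that order overlapped. The tables were made separately and levels were not tested across them. The controls of the 2 p53 KO tables were themselves unlike, with Pou5f1 at 1005 FPKM in the knockdown table and 277 in the ActD table and Nanog at 64.5 and 113 FPKM.

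**Figure D1:**
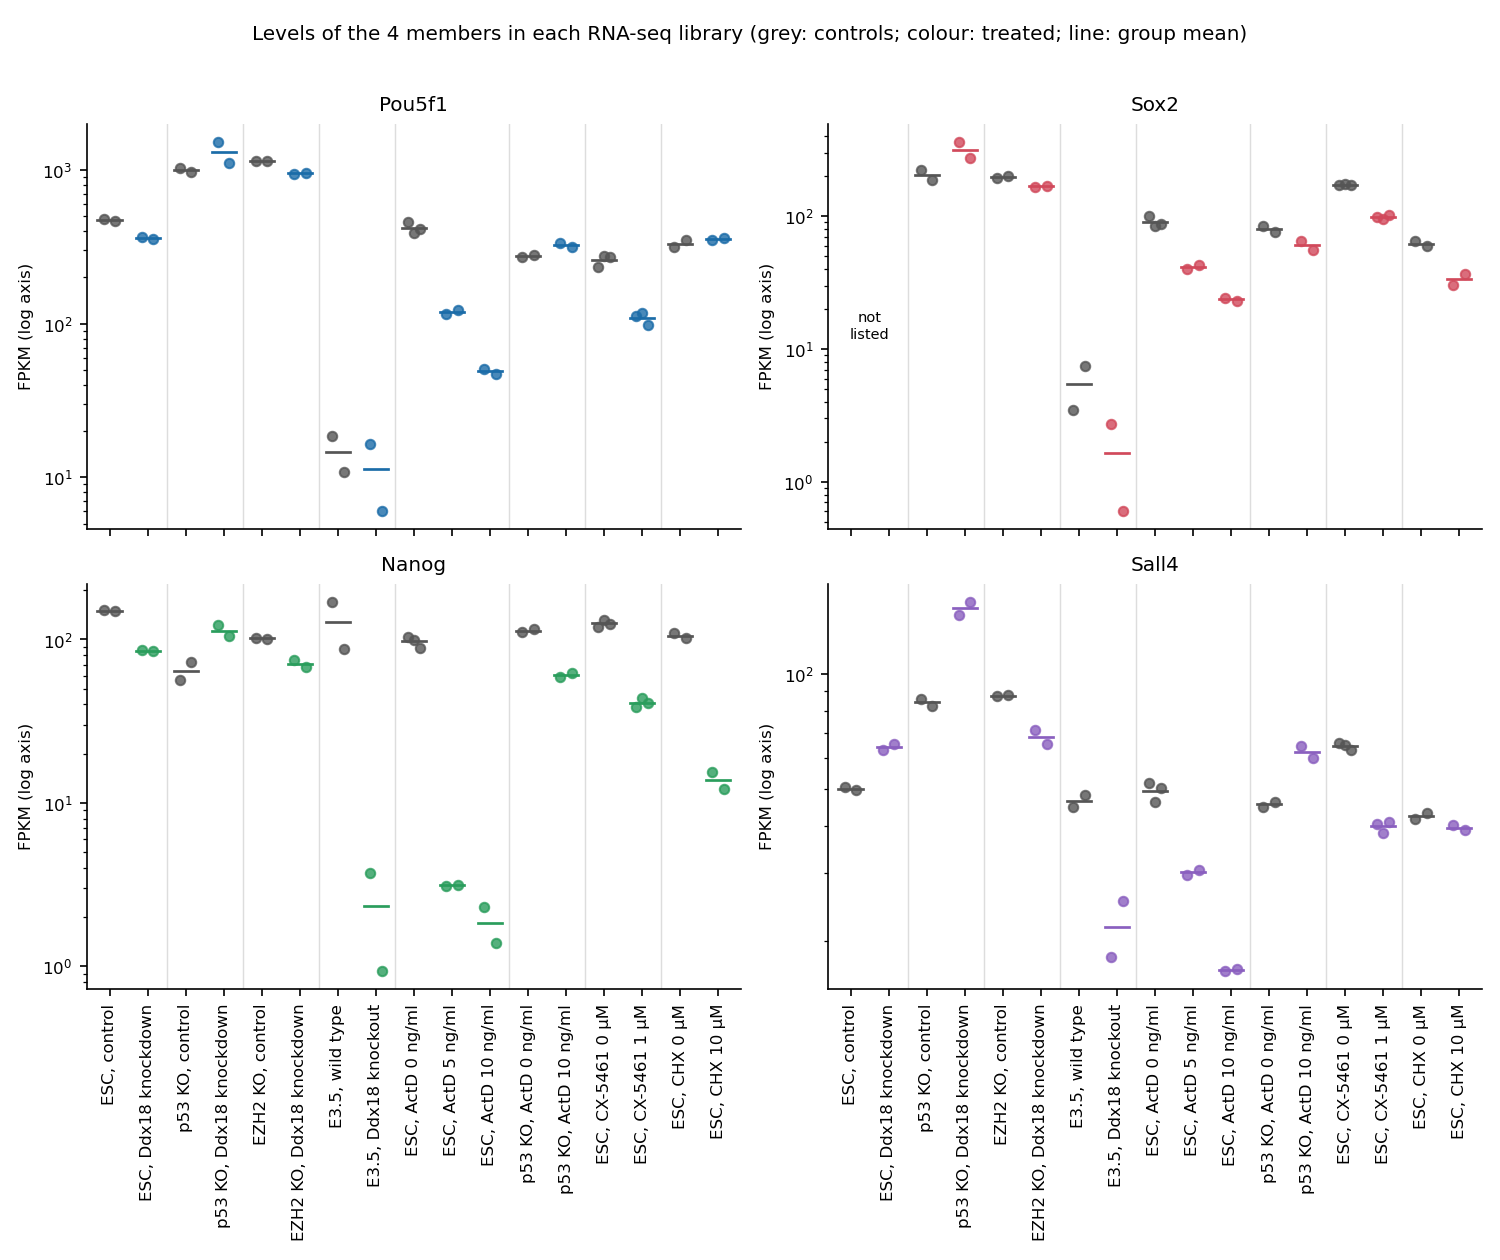
Level of each member (FPKM, log axis) in each RNA-seq library, grouped by condition; points are libraries, short lines group means, grey controls and colour treated groups, and vertical lines separate the tables. Nanog drops to between 0.938 and 3.71 FPKM in Ddx18 knockout embryos and to between 1.39 and 3.15 FPKM in ActD-treated ESCs, while in p53 KO ESCs given ActD it stays at 59.0 and 62.0 FPKM.

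After Ddx18 knockdown in ESCs, Nanog and Pou5f1 were lower and Sall4 was higher. Nanog fell from 151.7 and 149 FPKM in the controls to 86.4 and 84.6, Pou5f1 from 479.8 and 468 to 364 and 358, and Sall4 rose from 50.3 and 49.7 to 63.1 and 65.4. No control library overlapped a knockdown library for any of the 3 genes, as for 100% of the genes of this table. The log2 change was -0.81 for Nanog (95% confidence interval -0.92 to -0.70, adjusted p = 1.3e-05), -0.39 for Pou5f1 (-0.50 to -0.28, adjusted p = 0.00016) and 0.35 for Sall4 (0.24 to 0.47, adjusted p = 0.00041). All 3 listed members passed, but the table consists of selected genes, 97.9% of which pass the same test (55.2% higher and 42.6% lower), so passing carries no information about them. The median change of its genes was 0.30, and once libraries were rescaled to a common median ratio Sall4 stood at 0.11 (adjusted p = 0.066), no longer called, with Nanog at -1.05 and Pou5f1 at -0.63. The 3 listed trophectoderm markers (Krt8, Krt18, Gata3) summed to 23.8 and 25.3 FPKM in the controls and 114 and 148 after knockdown; their part in these changes was not tested.

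In EZH2 KO ESCs all 4 members were lower after knockdown, and Nanog passed the test. EZH2 is the methyltransferase of Polycomb repressive complex 2. Nanog stood at 102 and 101 FPKM in the controls and 74.8 and 67.6 after knockdown, Sall4 at 87.2 and 88.0 against 71.1 and 65.5, Pou5f1 at 1153 and 1136 against 946.5 and 958, and Sox2 at 194 and 200.0 against 168 and 170.3. In each case both knockdown libraries lay below both controls; groups did not overlap, in either direction, for 57.4% of all genes. Of all genes tested, 8.49% were called, 6.30% higher and 2.18% lower. The log2 change of Nanog was -0.51 (-0.75 to -0.27, adjusted p = 0.033), while those of Sall4 (-0.36), Pou5f1 (-0.27) and Sox2 (-0.22) had adjusted p-values of 0.075, 0.11 and 0.16. The call on Nanog was lost without a filter on low values (adjusted p = 0.093), without a variance trend (0.11) and without any 1 library (0.20 to 0.28), and after rescaling Pou5f1 and Sall4 were called as well (adjusted p = 0.045 and 0.043). The 5 trophectoderm markers summed to 21.5 and 28.4 FPKM in the controls and 70.0 and 74.8 after knockdown, their part not tested.

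In p53 KO ESCs all 4 members stood higher after knockdown, and none passed. Sall4 was at 86.0 and 82.3 FPKM in the controls and 143 and 154 after knockdown, and Nanog at 56.3 and 72.7 against 122 and 105. Sox2 was at 224 and 189 FPKM against 362 and 273, and Pou5f1 at 1035 and 976 against 1516 and 1115. Neither group overlapped the other for any member, which held for 61.2% of all genes, and the 2 knockdown libraries lay far apart for Pou5f1 and Sox2. The log2 changes were 0.81 for Sall4 (0.38 to 1.24, adjusted p = 0.058), 0.81 for Nanog (0.29 to 1.33, adjusted p = 0.074), 0.61 for Sox2 (0.07 to 1.14, adjusted p = 0.13) and 0.37 for Pou5f1 (-0.18 to 0.92, adjusted p = 0.30). The limma test called 0 of the 4 members against 3.27% of all genes (2.63% higher, 0.636% lower); 3 of the 4 had an unadjusted p under 0.05. The median change of all genes was 0.34, and relative to it, by rescaling, Pou5f1 turned to -0.01 and the others to between 0.23 and 0.43. Trophectoderm markers summed to 66.8 and 81.4 FPKM without and 75.4 and 133 with knockdown.

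The knockdown effect itself differed between genotypes. It was lower in ESCs than in p53 KO ESCs by 1.62 for Nanog (log2 difference -1.62, -2.10 to -1.13, adjusted p = 0.0055), by 0.76 for Pou5f1 (-0.76, -1.28 to -0.25, adjusted p = 0.045) and by 0.46 for Sall4 (-0.46, -0.76 to -0.15, adjusted p = 0.045). The fit gave each gene 1 spread for both tables, although knockdown libraries lay further apart in p53 KO ESCs than in ESCs. For all 3 genes the standard error of the difference was below that of the p53 KO change alone (Sall4, 0.129 against 0.177). These intervals may therefore be too narrow. All 3 members in both tables passed, where 24.7% of all shared genes did. The shared genes are limited to the selected genes listed for knockdown in ESCs, of which 97.9% were called in ESCs. Comparisons with ESCs are thus restricted to genes that mostly changed in ESCs, and these counts cannot speak for other genes. Rescaled, the difference for Sall4 no longer passed (adjusted p = 0.18), and for Pou5f1 and Sall4 it was lost without either ESC control or either ESC knockdown library (adjusted p = 0.13 to 0.16); for Pou5f1 it was also lost without either p53 KO control library (0.070 and 0.086), and for Sall4 without the second of them (0.062). Between ESCs and EZH2 KO ESCs, Sall4 alone differed, by 0.71 (0.49 to 0.93, adjusted p = 0.0064), with its estimates above 0 in ESCs and below 0 in EZH2 KO ESCs; 20.6% of shared genes differed, 10.3% in each direction. For Nanog and Pou5f1 the differences of -0.30 (-0.52 to -0.08) and -0.13 (-0.30 to 0.05) missed the threshold (adjusted p = 0.060 and 0.24), although both passed after rescaling (adjusted p = 0.015 and 0.026). Between EZH2 KO and p53 KO ESCs, Nanog (-1.32, -1.86 to -0.79, adjusted p = 0.048) and Sall4 (-1.17, -1.57 to -0.76, adjusted p = 0.042) differed, against 1.39% of all genes, and neither did after rescaling (adjusted p = 0.067 and 0.073). Both calls were lost without any 1 EZH2 KO library or p53 KO control (adjusted p = 0.12 to 0.23), that on Nanog also without the first p53 KO knockdown library (0.075), and without the second Pou5f1 and Sox2 became called (0.048 and 0.050).

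**Figure D2:**
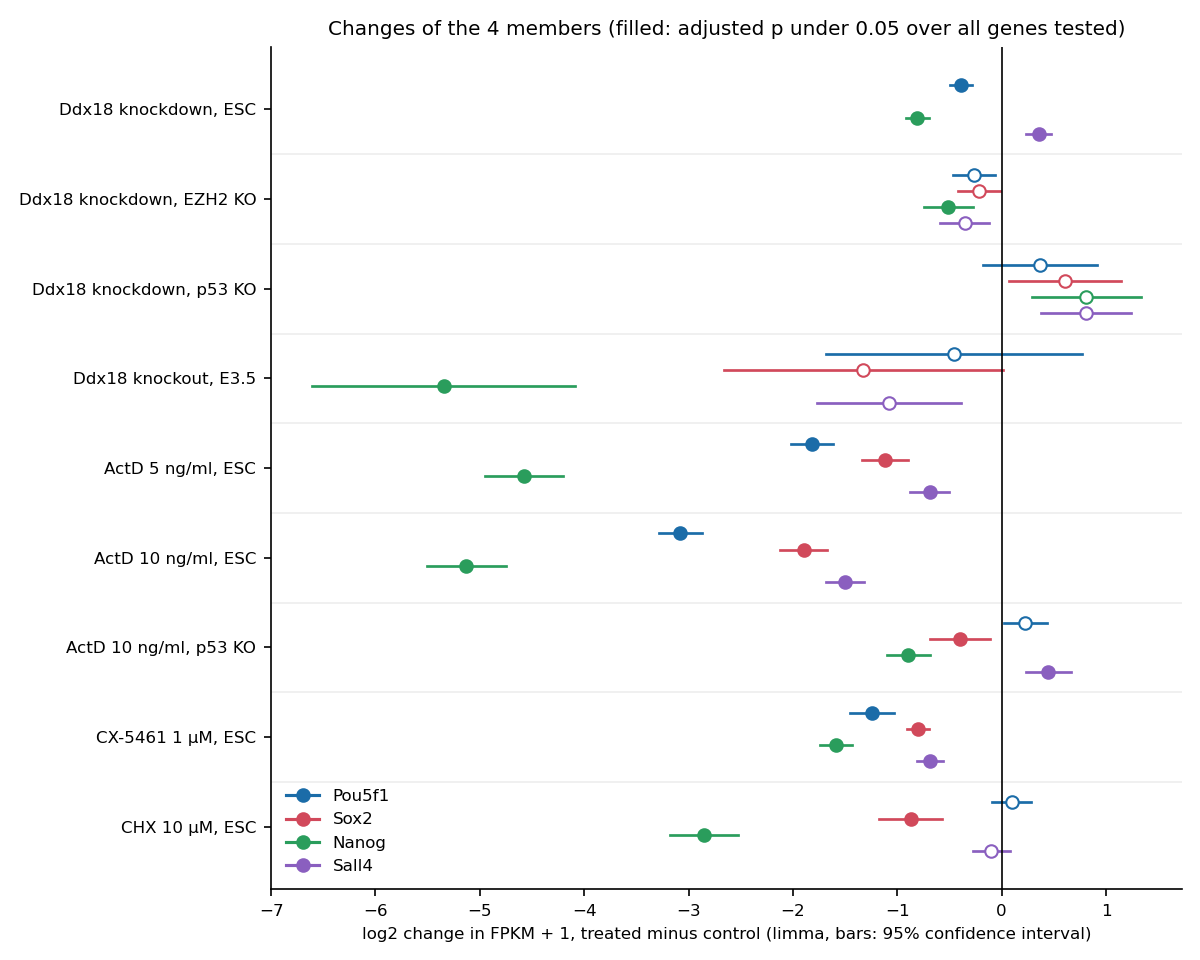
Log2 change of each member (FPKM + 1, treated minus control) in 9 comparisons; points are limma estimates, bars 95% confidence intervals, and filled points have an adjusted p under 0.05 over all genes tested. Nanog has the most negative estimate of the listed members in every comparison except Ddx18 knockdown in p53 KO ESCs, where all 4 estimates are above 0; Sox2 is missing from the knockdown in ESCs.

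In E3.5 embryos lacking Ddx18, Nanog was far lower while Pou5f1 overlapped with wild type. Nanog stood at 169.5 and 87.3 FPKM in the wild-type libraries and at 3.71 and 0.938 in the knockout libraries, 55.3-fold lower by means. Sall4 stood at 44.6 and 48.0 against 18.1 and 25.3, and Sox2 at 3.45 and 7.40 against 2.72 and 0.604; for these genes, as for Nanog and 56.7% of all genes, the groups did not overlap. Pou5f1 did overlap, with 18.5 and 10.9 FPKM in wild type and 16.5 and 6.06 in knockout.

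Nanog changed by -5.34 on the log2 scale (-6.60 to -4.08, adjusted p = 0.023), the fourth most negative of 8687 genes. The changes of Sox2 (-1.32, -2.66 to 0.01, adjusted p = 0.19), Sall4 (-1.08, -1.76 to -0.39, adjusted p = 0.074) and Pou5f1 (-0.46, -1.69 to 0.77, adjusted p = 0.62) did not pass. Nanog was thus 1 of 4 members called where 5.18% of genes were, 4.55% lower and 0.633% higher. Its call was lost with a pseudocount of 0.1 (adjusted p = 0.051), without the filter on low values (0.19) and without any 1 library (0.25 to 0.31), where the estimate lay between -5.99 and -4.70.

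The rest of the embryo transcriptome moved too. The median change of all genes was -0.31, and rescaling left Nanog at -5.09. The summed level of the 5 trophectoderm markers (Cdx2, Krt8, Krt18, Gata3, Elf5) was 191 and 192 FPKM in wild type and between 38.1 and 47.6 in knockout, with Elf5 at 0 in the knockout libraries, and that of the 5 primitive endoderm markers between 47.4 and 62.0 against 23.7 and 28.6. Most of the latter difference was Dab2 (means of 39.1 against 12.8 FPKM). Gata6 overlapped (13.4 to 14.8 against 10.4 to 14.1), and Gata4, Sox17 and Pdgfra had means of 1.47 FPKM or less. The part of these markers in the changes of the members was not tested. In these bulk libraries fewer cells with a transcript and less transcript per cell cannot be told apart. Spp1, an osteopontin gene with a described OCT4 and SOX2 site, was the 1 gene called lower of 5 tested with such sites (77.0 FPKM in wild type, listed at 0 in both knockout libraries; adjusted p = 0.0065), and L1td1, an RNA-binding factor of the network, the 1 called lower of 22 tested network factors, was at 22.6 against 4.78 FPKM (adjusted p = 0.044, and 0.083 after rescaling), where 4.55% of all genes were called lower.

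ActD lowered all 4 members in ESCs, Nanog most. With 5 ng/ml, Nanog went from 104, 99.5 and 88.9 FPKM to 3.10 and 3.15, Pou5f1 from 459.5, 389 and 415 to 115 and 122, Sox2 from 101, 85.04 and 88.1 to 40.1 and 42.9, and Sall4 from 51.8, 46.1 and 50.1 to 29.8 and 30.5. Every treated library lay below every control for each gene, and groups did not overlap for 67.6% of all genes. By means Nanog was 31.2-fold, Pou5f1 3.55-fold, Sox2 2.20-fold and Sall4 1.64-fold lower.

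The log2 changes at that dose were -4.58 for Nanog (-4.95 to -4.20, adjusted p = 1.2e-05), -1.82 for Pou5f1 (-2.02 to -1.61, adjusted p = 2.6e-05), -1.12 for Sox2 (-1.34 to -0.89, adjusted p = 2e-04) and -0.69 for Sall4 (-0.88 to -0.51, adjusted p = 0.00062). These intervals did not overlap. The change of Nanog was the third most negative of 14522 genes. In a table where 49.0% of genes were called and 16.1% were called lower, all 4 members were lower, and they stayed so under every alternative run, single libraries left out included.

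With 10 ng/ml all 4 group means were lower still. Pou5f1 stood at 50.6 and 47.3 FPKM, Sox2 at 24.4 and 23.05, Sall4 at 16.7 and 16.9 and Nanog at 2.30 and 1.39. The log2 changes from untreated ESCs were -3.08 (-3.28 to -2.87, adjusted p = 4.4e-06), -1.90 (-2.12 to -1.67, adjusted p = 1.9e-05), -1.50 (-1.68 to -1.31, adjusted p = 2.2e-05) and -5.13 (-5.51 to -4.75, adjusted p = 5.1e-06), where 56.4% of all genes were called and 20.0% were called lower. Groups did not overlap for any member, nor for 71.4% of all genes. Both doses share their controls. The step from 5 to 10 ng/ml was tested directly: it called 2.95% of all genes (1.47% in each direction) and 3 of the 4 members, Pou5f1 (-1.26, -1.48 to -1.04, adjusted p = 0.0085), Sall4 (-0.81, -1.01 to -0.61, adjusted p = 0.020) and Sox2 (-0.78, -1.03 to -0.54, adjusted p = 0.026), while Nanog missed (-0.55, -0.97 to -0.14, adjusted p = 0.16). By means Nanog was 1.69-fold lower at this step, beside 1.75-fold for Sox2, 1.80-fold for Sall4 and 2.42-fold for Pou5f1. At the low level of Nanog the log2 change of FPKM + 1 understates its fold. The calls on Sox2 and Sall4 at this step were lost without any 1 library (adjusted p = 0.073 to 0.18). That on Pou5f1 was lost without either 5 ng/ml library (adjusted p = 0.084 and 0.11) and without the second 10 ng/ml library (0.079).

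Trophectoderm markers stood higher beside this fall. Their summed level was between 11.8 and 46.9 FPKM in untreated ESCs, 713 and 724 at 5 ng/ml and 543 and 567 at 10 ng/ml, most of it from the keratin genes Krt8 and Krt18; Elf5, at 0 in untreated ESCs, was above 0 in 1 of the 2 libraries at each dose, at 0.2 FPKM or less. The 5 primitive endoderm markers summed to between 2.39 and 3.70 FPKM in untreated ESCs, 4.81 and 6.49 at 5 ng/ml and 7.18 and 7.71 at 10 ng/ml. Of these, Gata4 went from a mean of 1.43 to 3.24 and 3.19 FPKM, and Gata6 from 0.382 to 0.275 and 0.389. Sox17, Pdgfra and Dab2 rose but had means of 1.46 FPKM or less. Fibroblast markers summed to between 13.8 and 20.4, 22.4 and 23.4, and 26.9 and 27.4 FPKM in the same order, mostly Thy1, oocyte markers to between 7.09 and 13.8, 3.35 and 3.61, and 1.42 and 2.06 FPKM, and blood markers to 1.85 FPKM or less. The part of such cells in the fall of the members was not tested. In the column names the libraries also carry codes whose meaning is not given, and no untreated and treated library of this table shares one, so that whatever the code stands for cannot be told apart from the treatment.

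In p53 KO ESCs the same 10 ng/ml gave smaller changes, in both directions. Pou5f1 went from 272 and 282 FPKM to 336 and 314 and Sall4 from 44.8 and 46.1 to 64.5 and 60.2, both upward. Nanog went from 111 and 115 FPKM to 59.0 and 62.0 and Sox2 from 84.1 and 75.9 to 65.5 and 55.4, both downward. Treated and untreated libraries did not overlap for any of the 4, nor for 73.8% of all genes.

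Nanog fell by 0.89 on the log2 scale (-0.89, -1.10 to -0.69, adjusted p = 0.0045), Sox2 by 0.40 (-0.40, -0.69 to -0.11, adjusted p = 0.044), Sall4 rose by 0.45 (0.23 to 0.66, adjusted p = 0.016) and Pou5f1 was not called (0.23, 0.02 to 0.43, adjusted p = 0.080). That is 3 of 4 members where 37.0% of genes were called. The median change of all genes here was 0.35; after rescaling Sall4 stood at 0.09 (adjusted p = 0.42), Pou5f1 at -0.14 (adjusted p = 0.17), Sox2 at -0.76 and Nanog at -1.25. All 3 calls were lost without any 1 library (adjusted p = 0.055 to 0.23), and the call on Sox2 was lost under 3 of 5 other settings, with adjusted p reaching 0.11. The trophectoderm markers summed to 16.3 and 20.5 FPKM without and 24.8 and 26.3 with ActD. Fibroblast markers went from 14.7 and 18.4 to 44.6 and 47.4 FPKM, mostly through Thy1 (15.9 to 45.1), and oocyte markers from 4.81 and 5.86 to 22.2 and 23.1, mostly through Zp3 (5.17 to 22.3). Their part in the changes of the members was not tested.

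The difference between the genotypes at 10 ng/ml was large for every member. The fall in ESCs exceeded the change in p53 KO ESCs by 4.24 for Nanog (log2 difference -4.24, -4.68 to -3.79, adjusted p = 3.4e-06), by 3.30 for Pou5f1 (-3.30, -3.57 to -3.04, adjusted p = 1.4e-06), by 1.95 for Sall4 (-1.95, -2.18 to -1.71, adjusted p = 6.5e-06) and by 1.50 for Sox2 (-1.50, -1.84 to -1.15, adjusted p = 0.00011). All 4 members differed, where 39.3% of all genes did and 21.3% were lower in ESCs. The 4 calls held under every alternative run, with the largest adjusted p, 0.0014, for Sox2 without 1 library. Genotype and table cannot be told apart in this comparison beyond what the controls of each table remove.

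**Figure D3:**
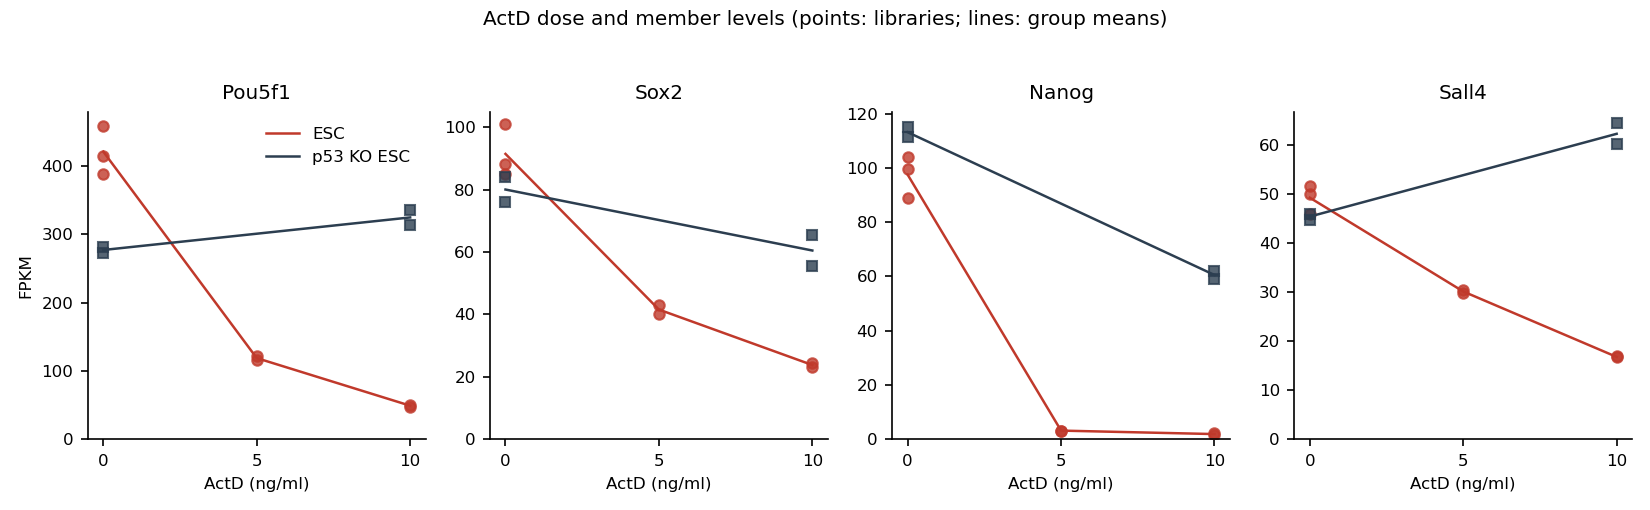
Level of each member (FPKM, linear axis from 0) against ActD dose in ng/ml; points are libraries, lines join group means, red ESCs and dark p53 KO ESCs, which were not given 5 ng/ml. In ESCs the lines fall at both doses, Nanog reaching 3.12 FPKM at 5 ng/ml, whereas in p53 KO ESCs Pou5f1 and Sall4 end above and Nanog and Sox2 below their untreated means.

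CX-5461, which also blocks RNA polymerase I, lowered all 4 members with the same order at the top. Nanog went from 119.5, 132 and 125 FPKM to 38.7, 43.9 and 40.7, Pou5f1 from 232, 276 and 270.1 to 112, 117 and 98.6, Sox2 from 172, 176 and 171 to 98.6, 96.2 and 102, and Sall4 from 65.9, 65.2 and 62.9 to 40.4, 38.2 and 40.9. The groups were apart for each gene, as for 67.3% of all genes. The log2 changes were -1.59 for Nanog (-1.74 to -1.43, adjusted p = 2.1e-06), -1.24 for Pou5f1 (-1.45 to -1.03, adjusted p = 2.3e-05), -0.80 for Sox2 (-0.91 to -0.69, adjusted p = 7.8e-06) and -0.69 for Sall4 (-0.81 to -0.56, adjusted p = 2.8e-05). In a table where 61.8% of genes were called and 28.9% of all genes were called lower, these calls held under every alternative run. Trophectoderm markers summed to between 2.45 and 4.33 FPKM without and 115 and 117 with the compound, their part in the fall again not tested. All 6 libraries carry the same column code.

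CHX separated the members. Nanog fell from 109.5 and 101.5 FPKM to 15.5 and 12.2, and Sox2 from 64.7 and 59.4 to 30.3 and 37.0, with no overlap, which held for 78.8% of all genes. Pou5f1 stood at 316 and 348 FPKM without and 349 and 360.2 with CHX, and Sall4 at 41.5 and 43.2 against 40.1 and 38.9, groups that lay next to each other without overlap. Nanog changed by -2.85 (-3.18 to -2.52, adjusted p = 0.00032) and Sox2 by -0.87 (-1.17 to -0.57, adjusted p = 0.0037), while Pou5f1 (0.10, -0.09 to 0.29, adjusted p = 0.32) and Sall4 (-0.10, -0.28 to 0.08, adjusted p = 0.28) were not called, so that a change of more than 0.29 in either direction lay outside both intervals. Of all genes 53% were called, 19.8% lower. Rescaling, which removed a median change of 0.12, put Pou5f1 at -0.01. The call on Sox2 was lost without either untreated library (adjusted p = 0.066 and 0.062) or without the first CHX library (0.051), and that on Nanog was kept in all 4 cases (at most 0.046). Trophectoderm markers summed to between 12.6 and 14.7 FPKM without and 4.74 and 11.3 FPKM with CHX.

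Ratios of members within a library do not depend on how a library was scaled. With ActD, log2 of Nanog over Pou5f1 went from -2.11 ± 0.13 (SD, n = 3) in untreated ESCs to -5.25 ± 0.04 (n = 2) at 5 ng/ml and -4.77 ± 0.45 (n = 2) at 10 ng/ml, while Sox2 over Pou5f1 went from -2.21 ± 0.03 to -1.52 ± 0.01 and -1.04 ± 0.01 and Sall4 over Pou5f1 from -3.09 ± 0.05 to -1.98 ± 0.03 and -1.54 ± 0.08. The lead of Pou5f1 over Sox2 and Sall4 was thus smaller at each dose. Each of these 6 contrasts kept treated and untreated libraries apart and gave an exact two-sided permutation p of 0.1, the smallest that 3 against 2 libraries allow.

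In p53 KO ESCs, with ActD, Sox2 over Pou5f1 went the other way, from -1.80 ± 0.14 to -2.43 ± 0.10 (n = 2 each), and Nanog over Pou5f1 from -1.29 to -2.42. With CHX, Sox2 over Pou5f1 went from -2.42 ± 0.19 to -3.40 ± 0.17 and Nanog over Pou5f1 from -1.65 to -4.69. After Ddx18 knockdown in ESCs, Sall4 over Pou5f1 went from -3.25 ± 0.01 to -2.49 ± 0.05, while in EZH2 KO ESCs it went from -3.71 ± 0.02 to -3.80 ± 0.10. In knockout embryos Nanog over Pou5f1 went from 3.10 ± 0.14 to -2.42 ± 0.38. With 2 libraries against 2, none of these exact two-sided permutation tests can give less than 0.333, the value each of them gave.

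**Figure D4:**
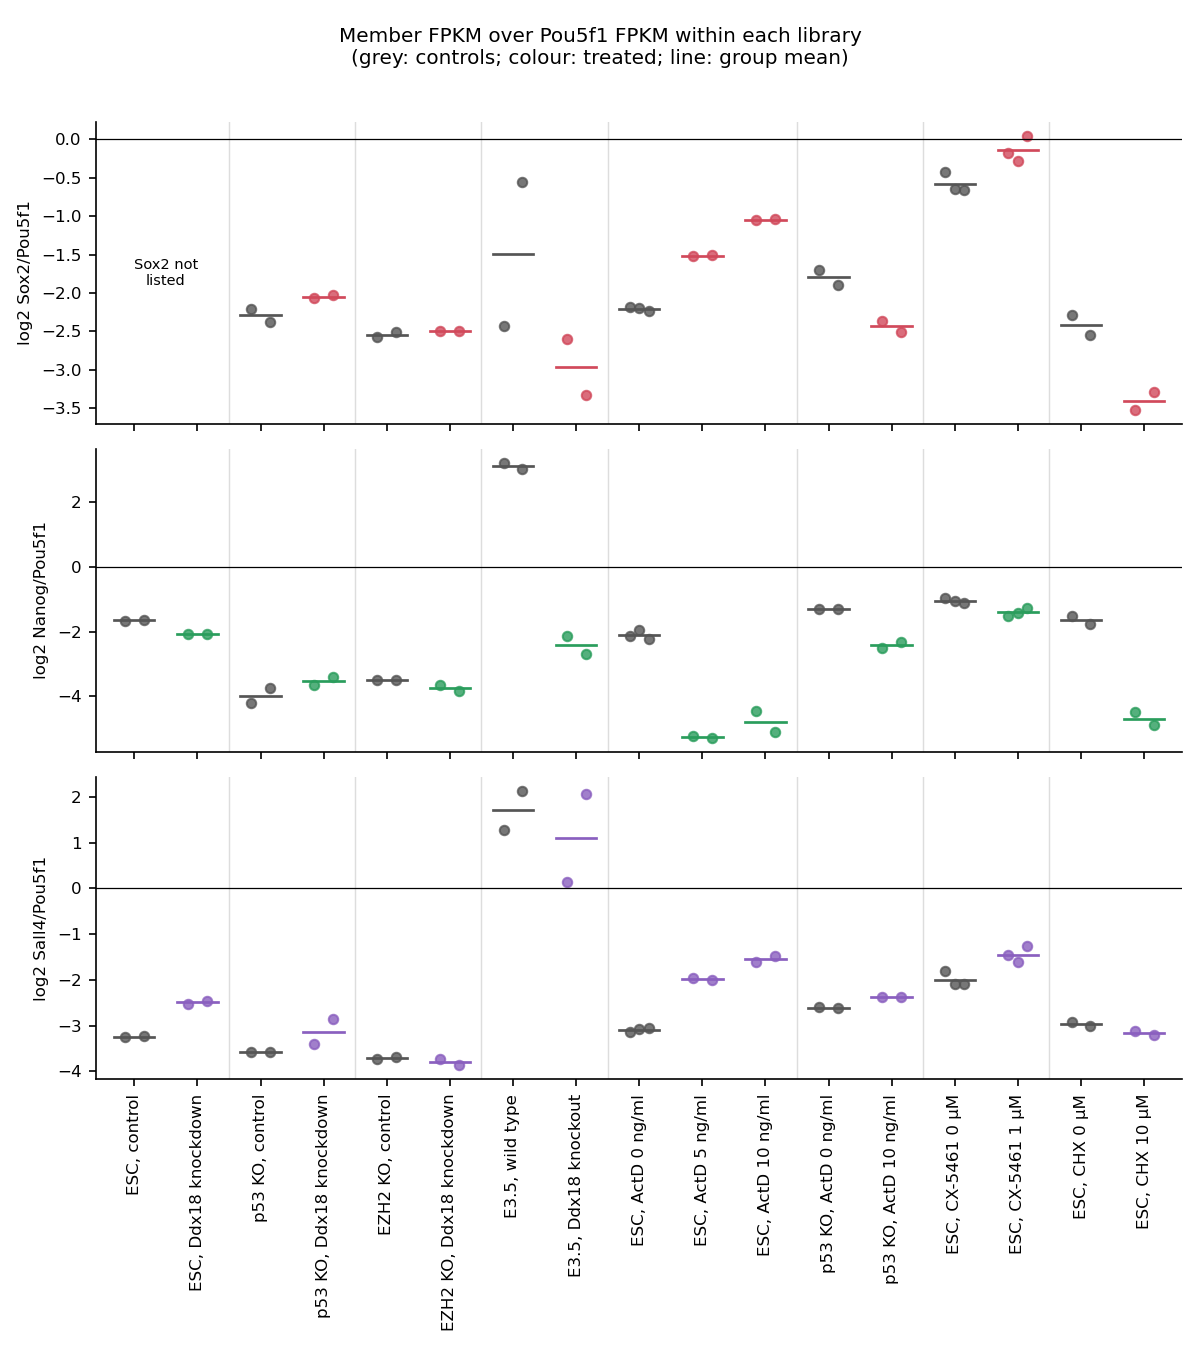
Log2 ratio of Sox2, Nanog or Sall4 FPKM to Pou5f1 FPKM within each library; points are libraries, short lines group means, grey controls and colour treated groups. Sox2 over Pou5f1 is higher with ActD in ESCs (-1.04 at 10 ng/ml against -2.21 untreated) and lower with ActD in p53 KO ESCs (-2.43 against -1.80), and Nanog over Pou5f1 is above 0 in wild-type embryos only.

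Genes with described OCT4 and SOX2 sites were mostly lower with ActD, CX-5461 and CHX in ESCs, although Pou5f1 and Sall4 were not called with CHX. Of 9 such genes, 9 were called lower at both ActD doses, with median log2 changes of -2.03 and -2.79 against 0.24 and 0.25 for all genes. Over all genes 16.1% and 20.0% were called lower at these doses. The Nodal co-receptor gene Tdgf1 went from 249 to 15.8 and 6.96 FPKM and the growth factor gene Fgf4 from 40.7 to 1.33 and 1.12 FPKM. With CX-5461, 8 of 9 were lower and 1 higher (median -0.99 against 0.03), and with CHX 7 were lower and 1 higher (median -2.0 against 0.12), Lefty1 and Lefty2, Nodal antagonist genes, dropping to 0.177 and 0.252 FPKM from 31.8 and 26.4. Shares over all genes were 28.9% lower and 32.9% higher with CX-5461, and 19.8% and 33.2% with CHX. In p53 KO ESCs given ActD, 6 of the 9 were higher and 1 lower (median 0.46 against 0.35), which became 3 and 3 after rescaling. Of all genes 32.7% were called higher there and 4.33% lower. Lefty2 rose in these cells from 14.6 to 62.0 FPKM and Fgf4 fell from 22.2 to 9.69 FPKM.

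After Ddx18 knockdown in ESCs, 5 of 5 listed genes with such sites were lower (median -1.24 against 0.30), in the table of selected genes where 97.9% were called and 42.6% lower. In EZH2 KO ESCs 2 of 9 were lower, Fgf4 (44.5 to 25.6 FPKM) and Lefty1 (80.7 to 47.9), which became 5 of 9 after rescaling, where Lefty2 and Utf1 were among those added, and none of 9 was called in p53 KO ESCs, where Utf1 stood at 675 against 439 FPKM (adjusted p = 0.16) and Tdgf1 at 94.3 against 88.2 (adjusted p = 0.73). Over all genes 2.18% were called lower in EZH2 KO ESCs, and 3.27% were called in p53 KO ESCs. The list was drawn up with earlier results of these data known.

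Other factors of the pluripotency network gave a similar picture, with exceptions. Of 26 such genes, 20 were lower at 5 and at 10 ng/ml ActD and 22 with CX-5461, among them the orphan receptor genes Nr0b1 (31.8 to 0.285 FPKM at 5 ng/ml) and Esrrb (115 to 13.9) and the Krüppel-like factor gene Klf2 (197 to 24.6). Up to 3 of the 26 were higher in those comparisons. Over all genes 16.1%, 20.0% and 28.9% were called lower there, and 32.9%, 36.4% and 32.9% higher. In p53 KO ESCs given ActD 9 were lower and 7 higher (16 and 5 after rescaling), Klf4 falling from 29.2 to 12.2 FPKM and Dppa2 rising from 40.4 to 95.3. Of all genes 4.33% were called lower there and 32.7% higher. CHX lowered 15, led by Zfp42 (349.9 to 36.4 FPKM), and raised 6, with Dppa3 going from 7.23 to 49.4. With CHX 19.8% of all genes were called lower and 33.2% higher. With Ddx18 knockdown in ESCs 9 of 13 listed factors were lower and 3 higher, Klf5 going from 131 to 225 FPKM, again among selected genes of which 97.9% were called. In EZH2 KO ESCs, where 2.18% of all genes were called lower, 1 of 26 was lower (Nr0b1, 72.4 to 42.6 FPKM), and 5 after rescaling. Likewise 1 of 26 was lower in p53 KO ESCs, where 0.636% of all genes were (L1td1, 182 to 61.3 FPKM). These counts come from tables of unlike make-up and were not compared.

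Lineage factors that oppose the members were mostly higher with ActD and CX-5461 in ESCs, where 32.9% to 36.4% of all genes were called higher. With CHX 1 of 4 was higher and 1 lower, where 33.2% and 19.8% of all genes were. With Ddx18 knockdown in ESCs only 3 of the 13 were listed, all called higher among selected genes of which 55.2% were. Of 8 tested of 13 in the ActD table, 7 were higher at each dose and 1, the epiblast factor gene Otx2, was lower (4.81 to 0.852 and 0.357 FPKM). Gata3, a trophectoderm factor gene, went from 0.0182 to 10.5 and 9.01 FPKM. Like any factor below 1 FPKM in the controls, Gata3 was tested only because treated libraries reached 1 FPKM. For such genes the filter fixed the direction in advance. Counts of factors called higher therefore cannot be weighed against the shares over all genes, in this or the other comparisons. With CX-5461, 5 of 6 were higher, Tfap2c going from 10.2 to 31.9 FPKM, and Otx2 was again lower (11.7 to 2.31). In p53 KO ESCs given ActD, 6 of 9 were higher, where 32.7% of all genes were, but the genes with the largest changes were T and Foxa2, factors of the primitive streak and endoderm (0.248 to 3.57 and 0.206 to 2.68 FPKM), and Otx2 rose from 14.8 to 32.7 FPKM. T and Foxa2 also entered the test only through the ActD libraries. In knockdown, Tfap2c was higher in ESCs (7.75 to 21.6 FPKM), EZH2 KO (9.09 to 18.6) and p53 KO ESCs (13.5 to 66.6), while Otx2 was lower in EZH2 KO (27.5 to 13.8) and higher in p53 KO ESCs (10.6 to 41.3), a call on Otx2 that was lost after rescaling (adjusted p = 0.060). After knockdown in EZH2 KO ESCs 1 of 8 tested was higher and 2 were lower, where 6.30% and 2.18% of all genes were. In p53 KO ESCs 2 of 10 were higher (1 after rescaling), where 2.63% of all genes were. None of 5 was called in knockout embryos, where 5.18% of all genes were.

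Paralogues of the members were called in both directions. Of 13 tested with 10 ng/ml ActD, 6 were higher and 2 lower, led by Sox15, which encodes a SOX protein that like SOX2 can pair with OCT4 and which rose from 28.5 to 96.4 FPKM at 5 ng/ml and 117 at 10 ng/ml. After rescaling these counts were 5 and 2, and over all genes 36.4% were called higher and 20.0% lower. With CX-5461, 3 of 11 were higher and 6 lower, where 32.9% and 28.9% of all genes were. Sox15 also rose with CX-5461 (5.43 to 13.6 FPKM) and after Ddx18 knockdown in ESCs (30.2 to 45.9). With CHX, 8 of 13 paralogues were higher (6 after rescaling, with 33.2% of all genes called higher), including Sall3 (0.351 to 10.2 FPKM) and Sall2 (0.785 to 5.22). The means of Sall3 and Sall2 in untreated ESCs were below 1 FPKM, so both passed the filter only through CHX libraries. Their direction was thus fixed in advance, and the count cannot be weighed against the share over all genes. Among 11 genes of the NuRD complex, the partners of SALL4, 5 were higher and 4 lower at 5 ng/ml ActD (2 and 4 after rescaling) and 2 and 5 at 10 ng/ml (1 and 6 after rescaling), where 32.9% and 16.1%, and 36.4% and 20.0%, of all genes were. The deacetylase gene Hdac1 fell there from 92.9 to 45.4 and 42.4 FPKM, and none of the 11 was called after knockdown in EZH2 KO or p53 KO ESCs or in knockout embryos.

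The likeness of patterns was described by Pearson's r over 33 libraries of the 7 full tables, on log2(FPKM + 1) minus the control mean of each table; libraries of a table share their controls, so r carries no test. Sox2 and Nanog were most alike among the members (r = 0.907, rank 3 of 5049 genes for Sox2 and 9 for Nanog), followed by Sox2 with Sall4 (0.824), Nanog with Sall4 (0.810), Pou5f1 with Sall4 (0.801), Pou5f1 with Sox2 (0.792) and Pou5f1 with Nanog (0.734). Without the 4 embryo libraries, a choice made after seeing the data, Pou5f1 with Sall4 went to 0.917 and Pou5f1 with Nanog to 0.854. The genes most like Pou5f1 were Mybl2, a MYB-family factor gene (0.967), Polr2e (0.957), Syce2 (0.930), Aamp (0.924) and Dctpp1 (0.923). For Sox2 they were Cmtm4 (0.915), Apela (0.911), Nanog, Rfx2 (0.896) and Spats2 (0.890), for Nanog Wdr76 (0.951), Fdps (0.935), Gm2a (0.922), Gm12070 (0.921) and Lpcat1 (0.920), and for Sall4 Dnajc8 (0.940), Cul2 (0.919), Cacybp (0.910) and Agtrap (0.905).

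Transcripts of 2 members were among the RNAs recovered with tagged DDX18. CLIP-seq and its variant TAP-seq, which uses tandem purification without gel separation, were run in ESCs carrying FLAG-biotin-tagged DDX18, with 2 libraries each, and the authors deposited scored regions on mm10. Sox2, a gene of 1 exon, had a region in CLIP library 1 (chr3:34650301-34651100, score 17.5), 2 regions in CLIP library 2 (chr3:34650701-34650900, score 23.5, and chr3:34650301-34650500, score 13.5, the latter annotated to the 5′ UTR) and 2 in TAP library 2 (chr3:34650701-34650800, score 18, and chr3:34651001-34651100, score 12). The stretch chr3:34650701-34650800 was thus covered in 3 of 4 libraries. Pou5f1 had a region in exon 1 in both CLIP libraries (chr17:35506201-35506400, scores 13.5 and 12) and another in CLIP library 2 (chr17:35509101-35509200, score 16), and none in TAP.

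No region overlapped Nanog or Sall4, and TAP library 1 had none at any member. The scores are the authors' and of unstated meaning. The region of Sox2 in CLIP library 2 with the score of 23.5 ranked 433 of all 939 regions and 59 of the 285 in coding exons. Of 1214 genes at 50 FPKM or more in untreated ESCs, 6.34% and 6.92% had an exonic region in the CLIP libraries and 2.88% and 3.95% in the TAP libraries.

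**Figure D5:**
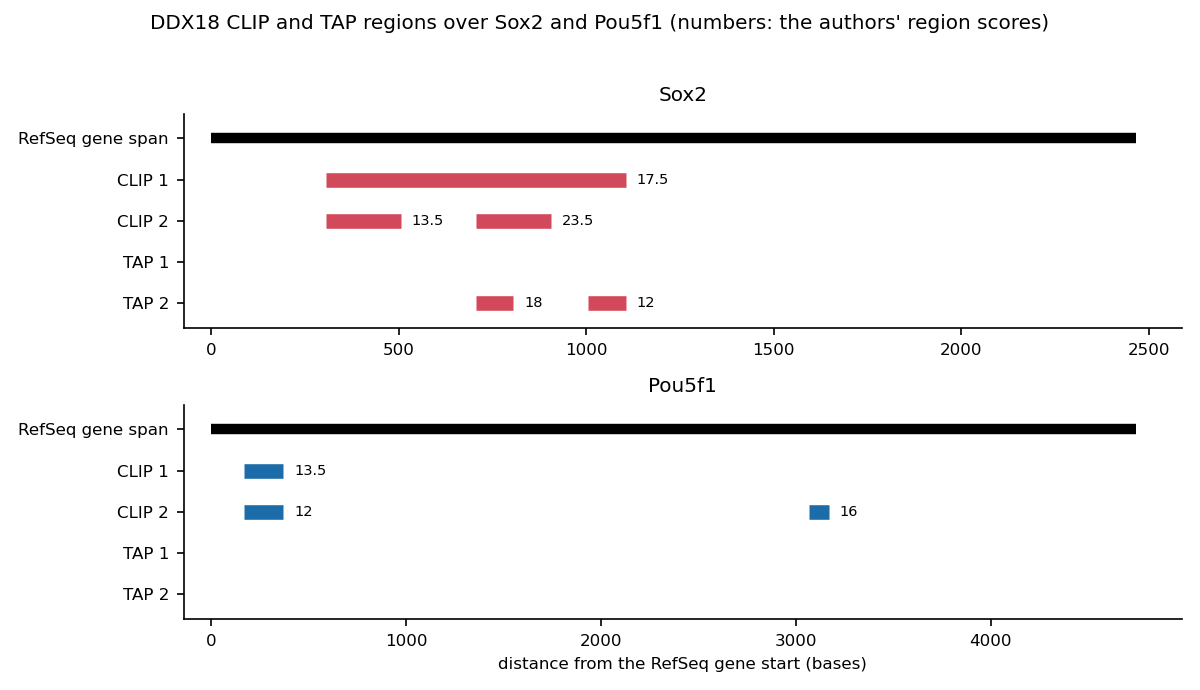
DDX18 CLIP-seq and TAP-seq regions over Sox2 and Pou5f1, by distance in bases from the RefSeq gene start; black bars are the gene spans, coloured bars regions, rows libraries and numbers the authors' scores. Sox2 regions of 3 libraries overlap between 706 and 805 bases from the start, and the first Pou5f1 region, from 169 to 368 bases, is the same in both CLIP libraries.

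Reads of near-identical or overlapping genes limit 2 of the members. The pseudogenes Nanog-ps1 and Nanog-ps2 were listed at 0 in every ESC group of the full tables, and Nanog-ps2 at 1.16 FPKM in 1 wild-type embryo library. Sox2 lies inside the long noncoding gene Sox2ot, whose group means ranged from 0 in embryos to 12.5 FPKM with CHX, where Sox2 itself fell. In p53 KO ESCs Sox2ot stood at 1.15 FPKM in controls and 8.02 after knockdown, where Sox2 was higher too. With ActD in p53 KO ESCs it went from 2.30 to 6.62 FPKM while Sox2 fell. No source used here says whether the counting used strand or how reads in an overlap were assigned. Reads of the 2 genes therefore cannot be told apart where they overlap, and strand alone may not separate them.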

How the data were processed

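The authors deposited FPKM values in 8 tables; per the submitters' processing notes TopHat2 2.0.11 and CASAVA were used, with mm9 and mm10 named without a role. The program that computed the FPKM and any scaling between libraries are not given in the sources used here. Mapped-read counts were deposited by the authors for 19 libraries. CLIP and TAP regions carry a score made by the authors, annotated on mm10 per the file headers. ChIP regions, whose build is not given, were not used here. In the 3 knockdown tables, columns named NT are taken as the controls.

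The members and gene lists were chosen with earlier results of these data known. Each comparison was tested with limma 3.58.1 (R 4.3.3) on log2(FPKM + 1) with a variance trend, two-sided, over genes reaching 1 FPKM in a number of libraries equal to the smallest group's size, with Benjamini-Hochberg adjustment over all of them and a threshold of 0.05; fold changes on this scale understate those of low genes. Differences between genotypes used a joint fit of 2 tables, each group with its own mean and each gene with 1 spread for both tables. Ratios within libraries used exact permutation tests. Rescaling used size factors taken as medians of ratios to a geometric mean reference. Other alternatives were a pseudocount of 0.1, no filter, a minimum of 5 FPKM, no variance trend, the replicate number as a block and each library left out. Named genes were, per list and comparison, up to 4 called with the largest changes, or 2 with the highest mean where none was called; Tfap2c and Otx2 values are given across comparisons where called, and per member the 5 genes of highest r, of which 1 is not reported here. Promoters come from RefSeq (GRCm38.p6), where 3 of the 4 members matched; between 99.8 and 99.9% of the tables' loci overlap the RefSeq gene of the same name. Without counts per gene, no counting intervals are given.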

Additional observations from a re-analysis of the deposited data

Results flagged for a closer look

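The effect of Ddx18 knockdown differed between genotypes for several members, by a limma test of the difference itself. Between ESCs and p53 KO ESCs the log2 difference was -0.76 for Pou5f1, -1.62 for Nanog and -0.46 for Sall4. Between ESCs and EZH2 KO ESCs it was 0.71 for Sall4, and between EZH2 KO and p53 KO ESCs it was -1.32 for Nanog and -1.17 for Sall4. After rescaling, 3 of these were no longer called: Sall4 between ESCs and p53 KO ESCs (adjusted p = 0.18), and Nanog and Sall4 between EZH2 KO and p53 KO ESCs (0.067 and 0.073). Several of the calls also did not hold when single libraries were left out.

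The effect of 10 ng/ml ActD differed between ESCs and p53 KO ESCs for all 4 members in the same kind of test, by -3.30 for Pou5f1, -1.50 for Sox2, -4.24 for Nanog and -1.95 for Sall4. Each genotype was measured in a table of its own.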

How the results depend on the processing

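Of the alternatives other than leaving out a library, 270 of 305 gave a member the same direction and side of the threshold, 25 lost a call, 7 gained one and 3 turned a direction. Those 3 were Pou5f1 after rescaling, at -0.012 for knockdown in p53 KO ESCs, -0.14 for ActD in p53 KO ESCs and -0.015 with CHX. Pou5f1 in embryos turned to 0.20 without knockout replicate 2, and lay between -1.11 and 0.20 over the libraries left out. The cause was not tested.

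Counts of genes called moved most in the tables of 2 against 2. For knockdown in p53 KO ESCs (380 genes, 0 members) they were 0 with a pseudocount of 0.1, without a filter and without a variance trend, 868 with 1 member at a minimum of 5 FPKM and 151 after rescaling. For EZH2 KO ESCs (999, 1 member) they were 56 and 0 members without a filter and 438 and 0 without a trend, with 3 members after rescaling. For embryos (450, 1 member) they were 3 and 0 with a pseudocount of 0.1, 0 and 0 without a filter, 166 after rescaling and 259 without a trend. ActD in p53 KO ESCs (4870) gave 2271 without a filter and 3079 rescaled, CX-5461 (8011) gave 5104 at a minimum of 5 FPKM, and 10 against 5 ng/ml ActD (428) gave 216 with a pseudocount of 0.1. The difference ESCs minus p53 KO (1165, 3 members) gave 775 with a pseudocount of 0.1 and 1 member without a trend, ESCs minus EZH2 KO (971, 1 member) gave 3 members rescaled, and EZH2 KO minus p53 KO (178, 2 members) gave 90 and 1 with a pseudocount of 0.1, 1 and 0 without a filter, 340 at a minimum of 5 FPKM, 0 members rescaled, and 47 and 0 without a trend.

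Replicate numbers did not pair the libraries: same-numbered deviations correlated at -0.02 (ESCs), -0.24 (p53 KO), -0.04 (EZH2 KO), 0.02 (embryos) and 0.03 to 0.05 (CX-5461). With the replicate block, which ends the call on Nanog in EZH2 KO ESCs (adjusted p = 0.053), knockdown in p53 KO ESCs gave 0 genes, EZH2 KO 0 members, embryos 725 genes, ESCs minus p53 KO 413 genes and 1 member, ESCs minus EZH2 KO 235 genes and EZH2 KO minus p53 KO 0 and 0. Crossing the numbers in p53 KO ESCs, chosen after seeing the data, gave 1149 genes and 2 members. For ActD and CHX alone, no paired analysis was possible because their column names carry no replicate numbers.

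Leaving out 1 library gave 0 to 0 genes and members for knockdown in p53 KO and EZH2 KO ESCs and in embryos, 0 to 5 genes and 0 to 0 members for ActD in p53 KO ESCs, 17 to 77 genes and 0 to 1 members for 10 against 5 ng/ml, 2281 to 3138 genes and 1 to 2 members for CHX, and 4368 to 8709 genes for 5 ng/ml ActD. The differences gave 250 to 1968 genes and 1 to 3 members (ESCs minus p53 KO), 124 to 1262 and 1 to 2 (ESCs minus EZH2 KO) and 0 to 425 and 0 to 4 (EZH2 KO minus p53 KO). With 2 libraries a group, this leaves 1 that is assumed to vary like the others. Depth is known here for 19 libraries. At an unadjusted p under 0.05, knockdown in p53 KO ESCs gave 3628 genes.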
